A study of Caenorhabditis elegans with 2 samples.

Results

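The aminoacyl-tRNA synthetase genes of Caenorhabditis elegans, the nematode worm, were examined for regions listed by chromatin immunoprecipitation and sequencing (ChIP-seq) of R02D3.7, also named rcat-1. Members were the protein-coding genes whose name is a single letter followed by ars- and a number in the Ensembl annotation of WBcel235, the assembly also called ce11. They numbered 32 of 19973 nuclear protein-coding genes. Strain OP218, with the genotype unc-119(ed3) III; wgIs218, carries the tagged copy eGFP-R02D3.7, and whole third-larval-stage (L3) animals of both sexes were used. The 2 samples were biological replicates of this 1 group. No untagged or input sample was among those analysed, so sites of the tagged protein could not be told apart from sites that are listed whichever protein is tagged. The labels do not name the promoter that drives the tagged copy or the cells that make it. In whole animals strong occupancy in few cells cannot be told apart from weak occupancy in many.

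Aminoacyl-tRNA synthetases join each amino acid to its own tRNA, and the charged tRNA is then carried to the ribosome by an elongation factor. Animal cells need this chemistry in the cytosol and again inside the mitochondrion, where a separate set of ribosomes works on tRNAs made from the mitochondrial genome. All of the enzymes are encoded in the nucleus, some by separate genes for each compartment and some by a gene that serves both. In the worm the number in a name does not give the compartment: aars-1 is the mitochondrial alanine enzyme and aars-2 the cytosolic one.

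By compartment, 12 members were mitochondrial, 17 cytosolic and 3 served both (gars-1, hars-1 and kars-1, for glycine, histidine and lysine). RefSeq product names gave the compartment of 4 mitochondrial and 10 cytosolic members. The compartments of the others rest on general knowledge of the genes.

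The sequences under the listed summits of 3 mitochondrial members are shown because these summits passed the authors' replicate filter, the irreproducible discovery rate (IDR) list, and lay -16 to -148 bp from an annotated start of the gene. They were read from RefSeq's WBcel235 genome and are written 5′ to 3′ on the strand of the gene. For the stronger aars-1 summit, in an exon of aars-1, 30 bases at chrII:11464078-11464107 (minus strand) are shown, with the letters GATTTACG in capitals. For the weaker aars-1 summit, outside any gene, chrII:11464570-11464720 (minus strand) is shown, with AGACGCAG in capitals, which reads CTGCGTCT on the other strand. For ears-2, chrIV:390469-390559 (minus strand) covers the bases between ears-2 and its divergent neighbour. For vars-1, chrV:8031320-8031410 (plus strand) ends at the base before the gene. In the ears-2 and vars-1 sequences the only capital is the base of the pooled summit.
aars-1 stronger summit: aggccagtgtaGATTTACGgcacattttct
aars-1 weaker summit: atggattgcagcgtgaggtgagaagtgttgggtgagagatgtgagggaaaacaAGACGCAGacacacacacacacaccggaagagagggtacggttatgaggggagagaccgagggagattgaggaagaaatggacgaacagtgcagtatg
ears-2: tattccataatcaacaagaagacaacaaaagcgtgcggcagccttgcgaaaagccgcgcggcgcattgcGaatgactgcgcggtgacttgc
vars-1: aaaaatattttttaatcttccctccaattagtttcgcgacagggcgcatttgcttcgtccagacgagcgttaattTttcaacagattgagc

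A promoter summit was a region's summit lying within 1000 bp upstream to 200 bp downstream of any transcript start of a gene. Such summits were found for 4 of 32 synthetase genes in the IDR list (12.5%), against 7.72% of all protein-coding genes. With 4 genes, the synthetase share is near that of all genes. The 4 were fars-1, ears-2, aars-1 and vars-1. These are counts over 1 set of genes with no test, and the set was proposed with results of these data in view.

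Lower in the data the synthetase genes were listed more often, as were all genes. The relaxed pooled list, which the authors made as IDR input and which holds peaks and background, placed a summit in 22 of 32 synthetase promoters (68.75%), against 41.7% of all protein-coding genes. Within the first 5000 pooled regions the count was 13 members (40.6%), against 16.2% of all genes. In the replicate 1 list it was 26 members (81.25%), against 41.4%, and in the replicate 2 list 23 members (71.9%), against 42%. Both replicate lists held a summit for 21 members (65.6%), against 28.1% of all genes. Synthetase genes had a mean of 2 annotated starts and a mean window of 1700 bp, against 1.49 starts and 1460 bp for all genes. The medians were 2 starts and 1209.5 bp, against 1 start and 1201 bp for all genes. The part of these differences in the counts was not tested.

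**Figure D1:**
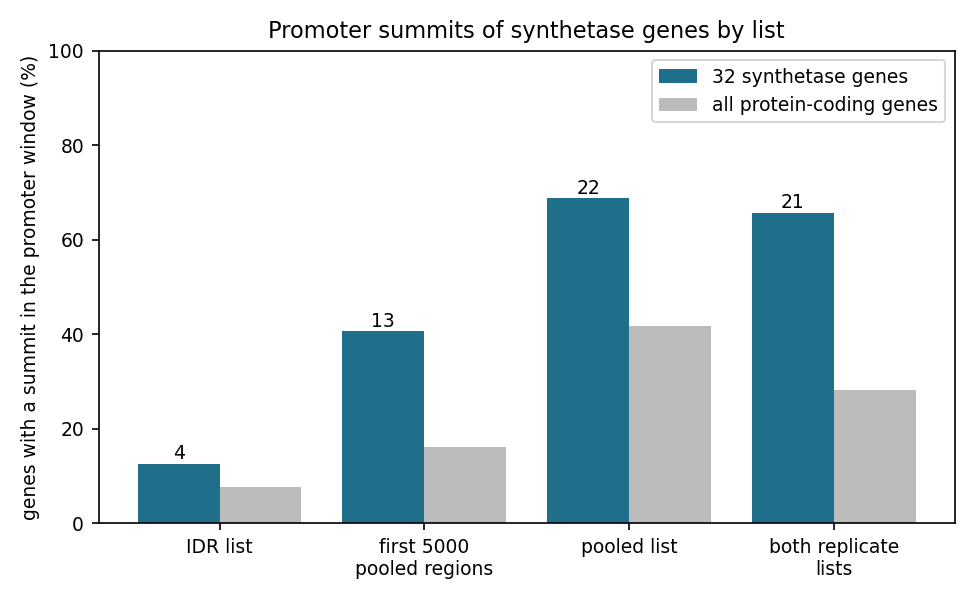
Bars give the percent of genes with a summit in the promoter window (vertical axis, from 0) for the 32 synthetase genes, with the number of genes above each bar, and for all 19973 protein-coding genes, in the IDR list, the first 5000 pooled regions, the pooled list and both replicate lists. The synthetase bars stand above the bars of all genes in each of the 4 pairs, at 65.6% against 28.1% in both replicate lists. In the IDR list, at 12.5% against 7.72%, the synthetase bar rests on 4 genes and is near that of all genes.

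In percentage points, the plot of shares shows the widest gaps in the relaxed lists, where the shares of all genes were also higher. Signal, the authors' own value per region on an unnamed scale, was read only within a list. Among genes with a pooled summit, the highest region of the 22 synthetase genes had a median signal of 26.1, against 19.7 for 8336 protein-coding genes. In the replicate 1 list the medians were 9.8 for 26 synthetase genes and 10 for 8259 protein-coding genes. In the replicate 2 list they were 14.6 for 23 synthetase genes and 12.5 for 8396 protein-coding genes. The pooled and replicate 2 medians were thus higher for the synthetases, and the replicate 1 median was slightly lower.

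The phenylalanine gene fars-1 (WBGene00001497, chromosome I, 6211981 to 6214685, minus strand) had the highest signal of the family. It encodes a subunit of the cytosolic phenylalanine enzyme, whose beta subunit is encoded by fars-3. Its region (6215344 to 6215772) had a signal of 584 in replicate 1 (rank 27), 297 in replicate 2 (rank 36) and 878 in the pooled list (rank 32). The replicate summits were 1 bp apart. The summit lay far from the gene, at -889 bp from the nearest fars-1 start, where negative values are upstream. The start of rbm-5, a gene for an RNA-binding protein, was nearer, at -153 bp, and the summit itself lay in an exon of T08B2.15, a gene on the opposite strand that overlaps the start of fars-1. With a window of 500 bp upstream to 100 bp downstream, or with each summit given only to its nearest start, fars-1 had no listed summit.

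The mitochondrial glutamate gene ears-2 (WBGene00001338, chromosome IV, 388686 to 390468, minus strand) came second. RefSeq describes its product as a nondiscriminating glutamyl-tRNA synthetase, a type that puts glutamate on the tRNAs for glutamate and for glutamine. Its region (390351 to 390611) had a signal of 193 in replicate 1 (rank 144), 146 in replicate 2 (rank 115) and 339 in the pooled list (rank 134). The pooled summit lay at -22 bp from the ears-2 start and at -70 bp from the start of uncp-18, which is transcribed the other way. The 2 starts were 92 bp apart, so the region spans both promoters and could not be assigned to either gene.

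The mitochondrial alanine gene aars-1 (WBGene00000196, chromosome II, 11460205 to 11464497, minus strand) held 2 IDR summits, the only member with more than 1. The stronger region (11463967 to 11464192) had a signal of 101 in replicate 1 (rank 287), 73.5 in replicate 2 (rank 312) and 164 in the pooled list (rank 303). Its replicate summits were 18 bp apart. This summit lay at -63 bp from the inner of the annotated aars-1 starts, that of a noncoding transcript, and inside an exon that begins at the outer start. The weaker region (11464453 to 11464836) had a signal of 30.2 in replicate 1 (rank 1283), 45.2 in replicate 2 (rank 731) and 67.4 in the pooled list (rank 1047). It lay at -148 bp from the outer start, between genes. The order of the replicates was thus opposite at the 2 summits by rank. Both also fell in the window of the divergent gene rga-1, at -810 bp and -249 bp.

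The mitochondrial valine gene vars-1 (WBGene00006935, chromosome V, 8031411 to 8035025, plus strand) was the weakest of the 4. Its region (8031203 to 8031586) had a signal of 29.7 in replicate 1 (rank 1305), 27.4 in replicate 2 (rank 1782) and 63 in the pooled list (rank 1147). The summit lay at -16 bp and in no other gene's window. The upstream neighbour oma-2, an oocyte maturation gene on the same strand, ended 197 bp before vars-1. The IDR list holds 1584 regions, and vars-1 was not among as many highest regions of replicate 2 alone.

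**Figure D2:**
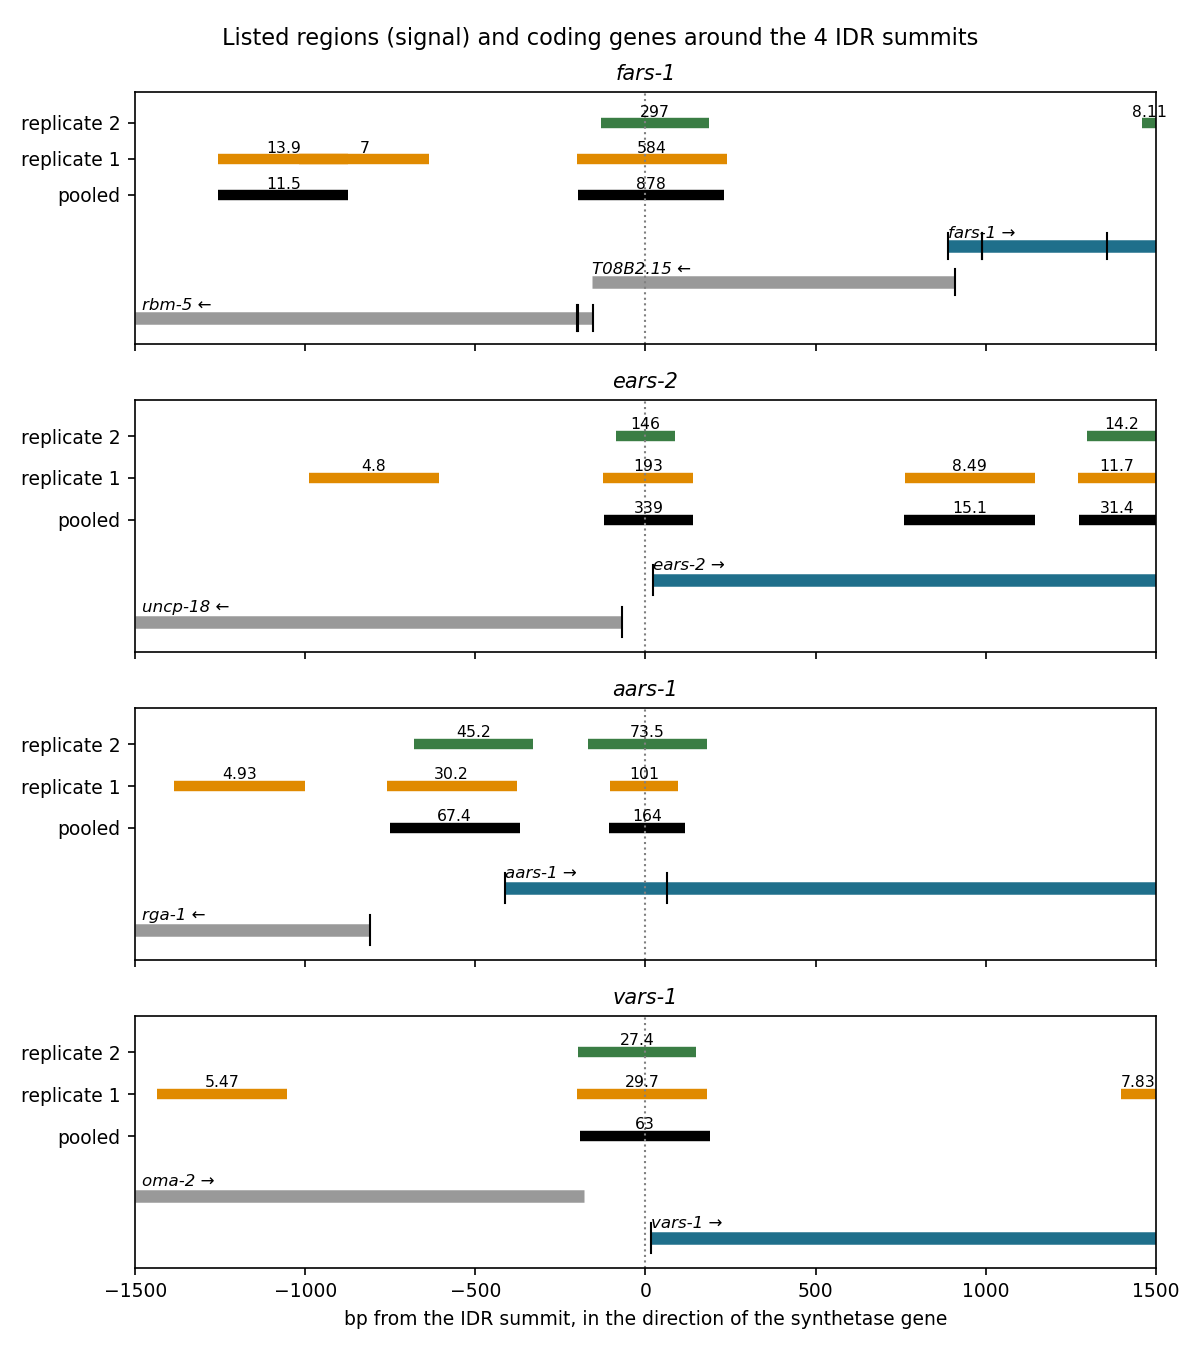
Each panel shows 1 of the 4 genes over 1500 bp on either side of its pooled IDR summit (horizontal axis, bp in the direction of the synthetase gene); coloured bars are the regions of the pooled and replicate lists with their signal, blue bars the synthetase gene, grey bars other coding genes, and black ticks transcript starts. The summit sits at the gene's own start in vars-1, and between the starts of ears-2 and uncp-18 in the ears-2 panel. The aars-1 panel is centred on the stronger summit, in an exon, and the weaker one lies between genes. The fars-1 summit is at -889 bp from fars-1, next to the start of rbm-5.

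As the maps of the 4 loci show, both replicate lists held a region at each of these summits. For the 5 IDR summits of the 4 genes the replicate summits were 1 to 65 bp apart, with a median of 15 bp, and their ranks differed by 1.09-fold to 1.76-fold. The weaker aars-1 summit gave the highest value of both, and without it the ranges were 1 to 18 bp and 1.09-fold to 1.37-fold. For the 18 members with a pooled but no IDR summit, the region of the highest pooled summit was in both replicate lists for 15. There the replicate summits were 1 to 292 bp apart, with a median of 67 bp, and ranks differed by a median of 2.15-fold, with the widest difference of 8.72-fold at cars-1. The highest region of a promoter was not always the same one in both replicates. When each replicate's own highest region was taken, the median over the 17 members outside the IDR list with a summit in both was 207 bp (1 to 1227 bp). The IDR filter uses the replicates' ranks, so these values are not independent of it, and the difference was not tested.

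Next below the IDR list stood 9 members within the first 5000 pooled regions. The first was aars-2, the cytosolic alanine gene, with a signal of 30.8 in replicate 1, 16.7 in replicate 2 and 42.1 in the pooled list (rank 2083), at -231 bp. The lowest signal in the IDR list was 50.7. In replicate 1 alone aars-2 ranked 1242, and it would join the 4 if that list were taken to the same length as the IDR list. In replicate 2 it ranked 4494, past that length.

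The methionine gene mars-1 had 21, 12 and 35.1 in replicate 1, replicate 2 and the pooled list (pooled rank 2724), at -300 bp. The cysteine gene cars-1 had 7.32, 27.3 and 33.9 in the same lists (rank 2876), at -825 bp. For these 2 cytosolic genes the replicates went opposite ways, with mars-1 at rank 2069 in replicate 1 and 9792 in replicate 2, and cars-1 at 15600 in replicate 1 and 1790 in replicate 2. The lysine gene kars-1 had no promoter summit in replicate 1, 25.7 in replicate 2 (rank 1983) and 30.4 in the pooled list (rank 3458), at -400 bp. Its window shared that summit with kat-1, a gene for a thiolase of fatty acid breakdown.

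The glycine gene gars-1 had 9.16, 16 and 28.5 in replicate 1, replicate 2 and the pooled list (rank 3853). The pooled summit, at 5163074, lay inside gars-1, between its annotated starts at 5162277 and 5163627. It was at -797 bp from the inner start, the only one whose window held it, although the outer start was nearer. The highest regions of the 2 replicates were different ones, 822 bp apart, and at the pooled summit itself replicate 1 had 6.74 (rank 18062) and replicate 2 had 16, with summits 71 bp apart. The arginine gene rars-1 had 11.4, 12.4 and 27.1 (rank 4234), with replicate summits 1 bp apart at -946 bp, and rpb-8, a gene for an RNA polymerase subunit, was nearer at -115 bp. In the shorter window of 500 and 100 bp the highest pooled signal was 14 for cars-1, 16.9 for gars-1 and 11.2 for rars-1. The values of these 3 genes thus rest on summits outside that shorter window.

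The glutamine gene qars-1 had 12.9, 11.4 and 26.4 in replicate 1, replicate 2 and the pooled list (rank 4444), at -386 bp. The annotated microRNA gene cel-mir-1833 lay within 200 bp of that summit. The replicate 1 value came from another region, and at the pooled summit replicate 1 had 11.1 (rank 6628) and replicate 2 had 11.4, with summits 65 bp apart. The beta-subunit gene fars-3 had 15.9, 12.7 and 25.8 (rank 4665), at -111 bp and in no other gene's window. The asparagine gene nars-1 had 19.3, 12.4 and 25.2 (rank 4870), at -258 bp, and nduf-6, a gene of respiratory complex I, had the same summit at -420 bp. The 2 subunit genes of the cytosolic phenylalanine enzyme had pooled ranks of 32 for fars-1 and 4665 for fars-3. The fars-1 rank is that of a region at -889 bp, nearer to the start of rbm-5, so the 2 ranks are not a like comparison.

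**Figure D3:**
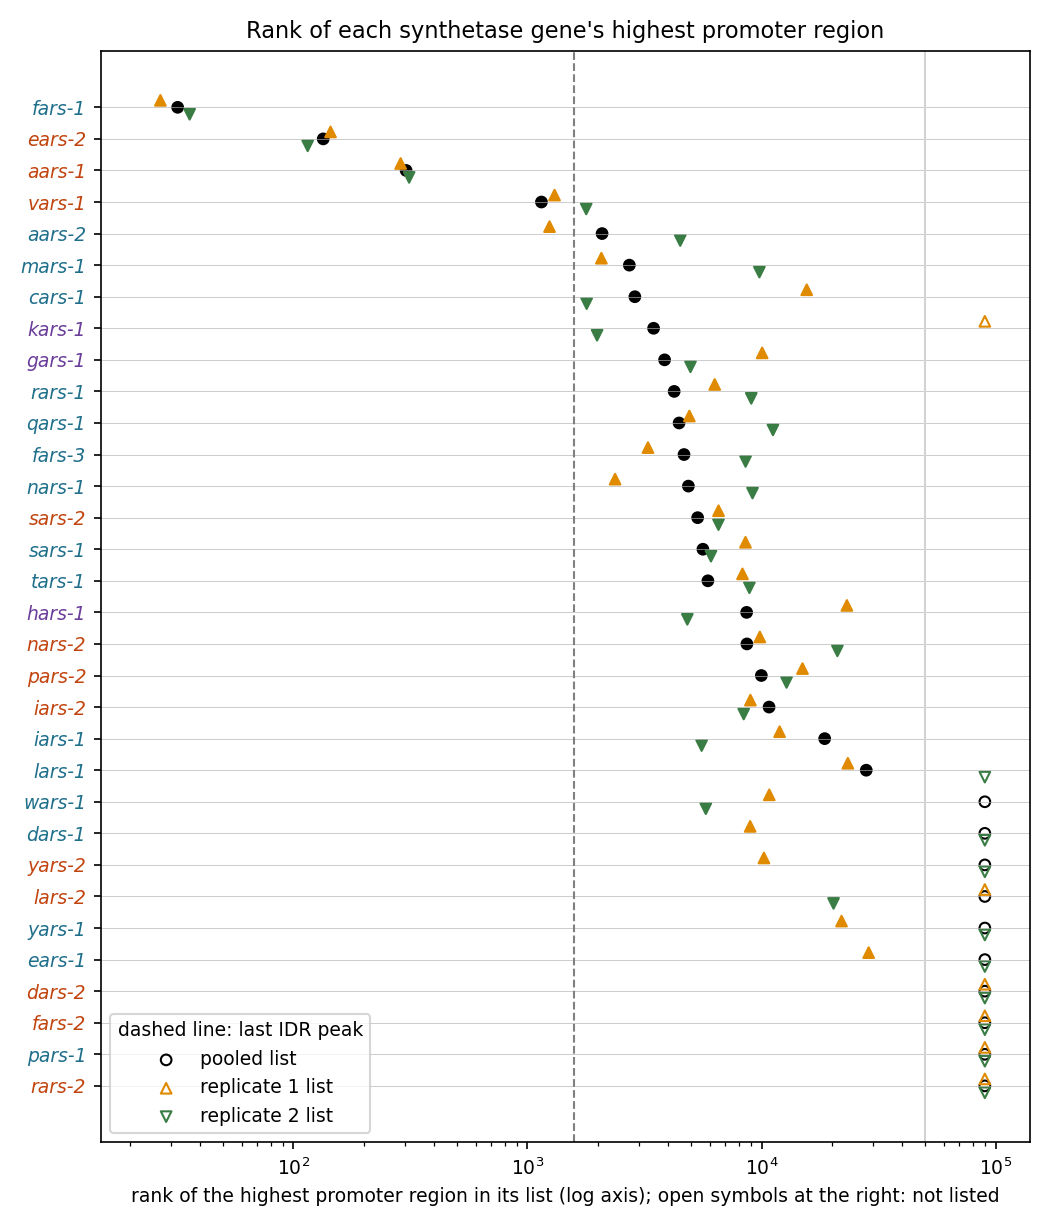
Each row is 1 synthetase gene and each symbol the rank of its highest promoter region (horizontal log axis) in the pooled list (circles), replicate 1 (upward triangles) and replicate 2 (downward triangles); open symbols at the right mean not listed, the dashed line is the last IDR rank (1584), and gene names are orange for mitochondrial, blue for cytosolic and purple for both compartments. The symbols of the 4 leading genes lie close together, and those of genes such as cars-1 and mars-1 spread apart.

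The plot of ranks also shows the rest of the family. Past rank 5000 in the pooled list were 9 members, with signals of 10.6 to 24.1: sars-2, sars-1, tars-1, hars-1, nars-2, pars-2, iars-2, iars-1 and lars-1, the last at rank 28020. They charge serine, threonine, histidine, asparagine, proline, isoleucine and leucine. In at least 1 replicate list but not in the pooled list were 6 members: dars-1, ears-1, lars-2, wars-1, yars-1 and yars-2. No promoter summit was found in any of the lists for 4 members: dars-2, fars-2, pars-1 and rars-2. Of these, dars-2, fars-2 and rars-2 are mitochondrial and pars-1 is the cytosolic proline gene.

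By compartment, the IDR list held a summit for 3 of 12 mitochondrial genes (25%), 1 of 17 cytosolic genes (5.88%) and 0 of the 3 genes that serve both, against 7.72% of all protein-coding genes. The cytosolic share was close to that of all genes, and the mitochondrial one rests on 3 genes. In the pooled list the order was the other way round, with 7 of 12 mitochondrial (58.3%), 12 of 17 cytosolic (70.6%) and 3 of 3 dual genes, against 41.7% of all genes. Within the first 5000 pooled regions there were 3 mitochondrial (25%), 8 cytosolic (47.1%) and 2 dual genes, against 16.2% of all genes. If only the compartments named by RefSeq are used, 2 of 4 mitochondrial and 0 of 10 cytosolic genes had an IDR summit. The 12 mitochondrial genes thus split into 3 in the IDR list, 4 past rank 5000 in the pooled list and 5 absent from it. No difference between the compartments was tested.

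Synthetases fall into 2 structural classes with unrelated catalytic folds. In the IDR list there were 2 of 15 class I genes (13.3%) and 2 of 17 class II genes (11.8%), against 7.72% of all protein-coding genes. In the pooled list there were 9 of 15 class I genes (60%) and 13 of 17 class II genes (76.5%), against 41.7% of all genes. No difference between the classes was tested.

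Pooled summits of the family lay about as far from the start as those of all genes. The median was -259 bp for the 22 synthetase genes, against -257 bp for 8336 protein-coding genes. Distances were taken from the nearest start whose window held the summit. In the last 200 bp before a start lay 7 of the 22, farther out but short of 500 bp another 7, from 500 to 1000 bp upstream 6, and past the start 2. The 6 include gars-1, whose summit lay inside the gene and nearer to its outer start. For 14 of the 22 the highest summit was also in another coding gene's window, and for 6 of these another gene's start was nearer: rbm-5 for fars-1, T11G6.2 for hars-1, pges-2 for iars-1, C25A1.20 for iars-2, rpb-8 for rars-1 and C47E12.2 for sars-1. The summit lay in an annotated exon for 5 members. For shared windows, nearer starts and exons no share over all genes was computed, so these counts do not set the family apart.

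**Figure D4:**
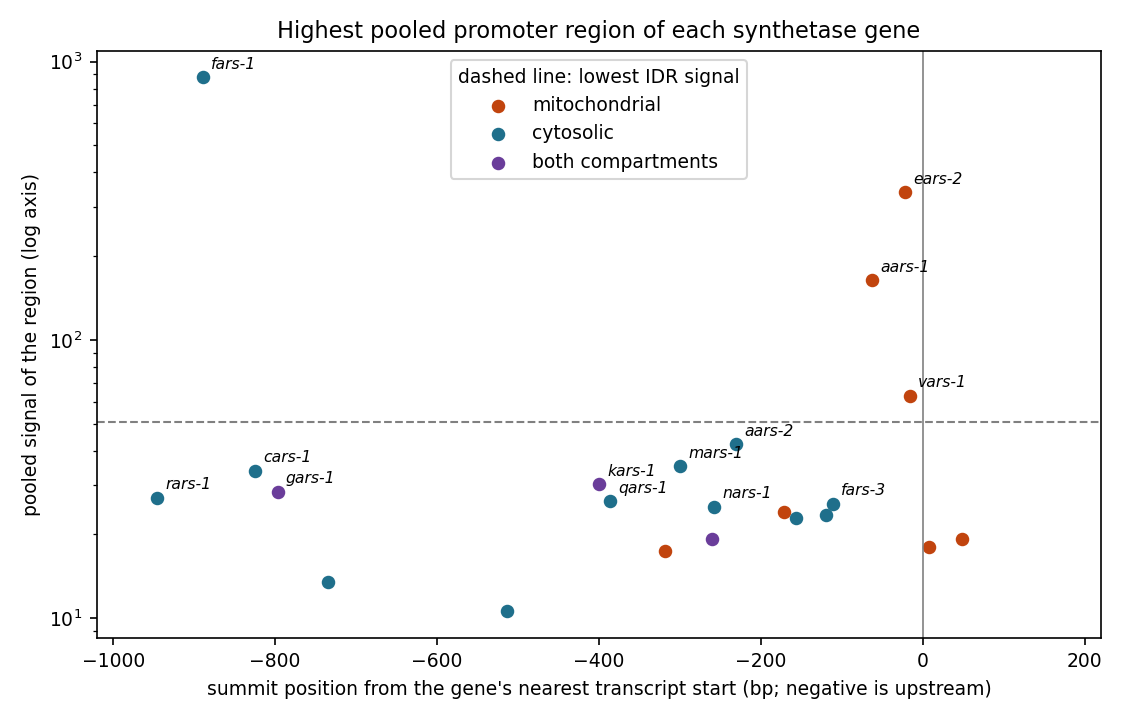
Each point is the highest pooled promoter region of 1 of 22 synthetase genes. The horizontal axis gives its summit position (bp, negative upstream) and the vertical log axis its signal. Positions are from the nearest transcript start whose window holds the summit. Colours give the compartment, and the dashed line is the lowest IDR signal (50.7). Of the 4 points above the line, the mitochondrial genes ears-2, aars-1 and vars-1 lie at -22, -63 and -16 bp and the cytosolic fars-1 at -889 bp. The aars-1 position is from its inner start, that of a noncoding transcript.

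The plot of distance against signal separates fars-1 from the other leading genes by position. The plotted aars-1 distance is from its inner start, that of a noncoding transcript. From the outer start that summit lies inside the gene, beyond the promoter window. Synthetase genes also had close upstream neighbours. A divergent coding neighbour started within 1000 bp for 12 of 32 members (37.5%), against 18.6% of all protein-coding genes, and 3 of those 12 had an IDR summit. A same-strand neighbour lay within 1000 bp for 13 members (40.6%), against 30.3%, and 1 of them, vars-1, had an IDR summit. The nearest neighbour was farther for 7 members (21.9%), against 51.03% of all genes, and none of those 7 had an IDR summit. The IDR share of all genes with each kind of neighbour was not computed, so the IDR counts cannot be compared between the kinds. Of the divergent members with an IDR summit, fars-1 has T08B2.15 as its upstream neighbour, and its summit lay nearest to rbm-5. Over all protein-coding genes the IDR share was 7.72%. The shares of neighbours describe the annotation and were not tested.

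For the 28 members with no IDR promoter summit, the nearest IDR summit was a median of 20226 bp from a start (1796 to 108626 bp). The closest were at -1796 bp from iars-2, the mitochondrial isoleucine gene, and at 1875 bp from sars-2, the mitochondrial serine gene. A window of 2000 bp upstream to 500 bp downstream added iars-2 to the 4. In that window 9.83% of all protein-coding genes had an IDR summit.

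Short letter strings were searched on both strands within 100 bp of each summit, in windows of 201 bp. The letters GATTTACG, added to the search after the data had been seen, were in 47% of the first 200 IDR windows, 10.7% of all 1584 and 1.58% of 8938 pooled promoter windows outside the IDR list. Of the 32 pooled promoter windows of synthetase genes, 1 held it: the stronger aars-1 summit, 5 bp away. The letters CTGCGTCT, likewise added, were in 9% of the first 200 IDR windows, 16.2% of all and 5.07% of pooled promoter windows outside the list, and in 1 synthetase window, the weaker aars-1 summit. Each of the 2 aars-1 summits thus held a different one of the 2 strings, as the capitals in the printed sequences show.

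The fars-1 and ears-2 windows held none of the 12 strings searched, and the vars-1 window held only CCAAT, which was also in 29.9% of IDR windows. In the 27 synthetase windows outside the IDR list, GCGCGC was in 2 (7.41%, pars-2 and rars-1), against 3.27% of the 8938 pooled promoter windows outside that list. GAGAGA was in 7 (25.9%), against 19.9%, and GATAA in 12 (44.4%), against 41%. CCAAT was in 10 (37%), against 34.1%, TATAAA in 3 (11.1%), against 21.4%, and TTTTTTTT in 5 (18.5%), against 22.5%. TGCGTC, which overlaps CTGCGTCT, was in 1 (3.7%), against 8.81%, CACGTG in 1, against 4.41%, TGATGC in 1, against 6.2%, and TGACGT in 0, against 6.99%. With 27 windows, several of them from 1 gene, these shares are descriptions only. Over whole promoter windows GATTTACG occurred in 4 of 32 synthetase genes (12.5%), against 6.90% of all protein-coding genes: aars-1, aars-2, qars-1 and yars-1. Of all genes that hold it, 22.6% had an IDR summit, and of these 4 members aars-1 alone did. CTGCGTCT occurred in 2 members (6.25%), aars-1 and cars-1, against 10.2% of all genes.

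Lists of genes meant to act next to the synthetases were drawn up by gene name, and the role of each gene was not checked. Of 8 genes listed for delivery of charged tRNA to the ribosome, 5 had an IDR promoter summit, against 7.72% of all genes. The elongation factor gene eef-1A.1, whose product carries charged tRNA in the cytosol, had a pooled signal of 445 (rank 91). It was followed by eef-1B.1 with 194, eef-1G with 171 and eef-1A.2 with 151. The summits of eef-1A.1, eef-1B.1 and eef-1G also lay in the windows of rfc-4, aco-2 and ctf-4, in that order. The eef-1A.2 summit lay in no other gene's window. The mitochondrial counterparts of these genes, tufm-1 and tufm-2, had pooled signals of 32.4 and 36.6 and no IDR summit, and tsfm-1 had no pooled summit. The delivery genes with an IDR summit were thus cytosolic. Of the 4 synthetase genes with one, 3 were mitochondrial, but 9 of the 12 mitochondrial synthetase genes had none. The ears-2 and aars-1 summits also lay in the windows of uncp-18 and rga-1, and the cytosolic fars-1 summit lay nearest to rbm-5. No contrast between the 2 lists was tested.

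Of 3 annotated genes for sensing amino acid shortage, 2 had an IDR summit, against 7.72% of all protein-coding genes: gcn-1 with 71.5 (rank 957) and gcn-2 with 58.5 (rank 1267). Their products form the pathway that reads uncharged tRNA. The gcn-2 summit also lay in the window of Y81G3A.1. The third, atf-4, had a pooled signal of 34.3 at rank 2831. Of 24 genes listed by name for tRNA splicing, end processing and modification, 3 had an IDR summit. They were elpc-4 with 110, trm-1 with 77.5 and pus-1 with 51.4. This share of 12.5% is near the 7.72% of all genes and equals that of the synthetase genes. The elpc-4 summit lay at -966 bp and also in the window of C26B2.7, and the trm-1 summit also in that of ints-2. Of 7 genes listed for tRNA transcription, 1 had an IDR summit, against 7.72% of all genes. It was tftc-1 with 58.7, whose summit also lay in the window of ppgn-1. The valine gene glp-4, a synthetase outside the naming rule, had a pooled signal of 14.9 at rank 15180 and no IDR summit. None of these counts was tested.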

How the data were processed

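ChIP-seq regions of 2 biological replicates (1 group) were taken as deposited on ce11: an IDR list of 1584 regions, a pooled relaxed list of 30000, and replicate lists of 30000 and 29367. Per the deposited lists of files, each relaxed list was made from the replicate alignments and a control alignment, and the IDR list from the relaxed lists. Both replicate lists used the same control alignment, so they are not fully independent. Caller, aligner, IDR threshold and depth: not given in the sources used here. The authors' signal value per region has no stated scale and was compared only within a list. The authors' −log10 q-value per region was 3.43 for all 4 leading genes in the pooled list and was not used to rank. The summit offset deposited with each region gave the summit. No sample-level test was possible with 1 group, and no p-value is given.

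Transcript starts of protein-coding genes came from Ensembl release 115, and product names and sequence from RefSeq. All 32 members matched a RefSeq product, and 0 regions reached past a chromosome end. Lists on ce10 were not used. Regions were ranked by signal. Full values are given for members with an IDR promoter summit or a pooled region within the first 5000 ranks, and the others by range and count. Other coding genes are named where they share such a summit or, from lists, where they have an IDR summit (at most 4 a list). Also named, after their values were seen, were the mitochondrial delivery genes, atf-4 and glp-4. The same holds for genes nearer to other members' summits and for genes that share a summit with a list gene. The members, lists and rules were chosen with earlier results of these data known. The alternatives of RefSeq starts and of coding transcripts only were chosen after seeing the data. The assignment of summits to genes was checked on simulated regions. Python 3.11.15 was used with pandas 2.3.3, numpy 2.4.6 and matplotlib 3.10.9.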

Additional observations from a re-analysis of the deposited data

How the results depend on the processing

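The number of synthetase genes with an IDR promoter summit was 4 and stayed between 3 and 5 in all but 1 alternative. In those alternatives the share of all genes ran from 4.59% to 9.83%. Taking 2 times as many pooled regions as the IDR list holds gave 7, adding aars-2, cars-1 and mars-1, against 12.2% of all genes; the longer list allows more genes. The count was 3 without replicate 1, which left out vars-1, and 5 without replicate 2, which added aars-2 (9.375% to 15.62% of members). The share of all genes was 6.92% without replicate 1 and 7.92% without replicate 2. The member count was 3 in the higher-signal 50% of the IDR list, which left out vars-1, against 4.59% of all genes. It was 4 with RefSeq starts (7.61% of all genes), with starts of coding transcripts only (7.71%), or where any overlap of region and window counted (8.17%). With coding transcripts only, aars-1 counted through its weaker summit alone. Pooled counts ranged over 17 to 28 of 32 members while the share of all genes moved over 28.7% to 54.2%, and counts in both replicate lists over 15 to 23 while that share moved over 18.3% to 40.9%. Of 52 signals of named genes under other windows, 46 kept their value. No paired analysis was possible because there is only 1 group. With no depth at hand, a gene with no listed summit is one not listed, not one shown to be free of the protein.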

Other observations

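RefSeq gives a tRNA ligase product to 3 protein-coding genes outside the naming rule, and none had an IDR promoter summit. The valine gene glp-4 is given with the other results. K03B4.1, described as a seryl-tRNA synthetase, had no pooled promoter summit. The third, prx-10, carries a peroxisome factor name and a mitochondrial tryptophan ligase name together, and had a pooled signal of 13.2 at rank 19602.

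Counted over the whole gene span, wars-1 had 6 pooled summits, nars-2 had 5 and fars-2 had 4, although fars-2 had no promoter summit. Gene length was not taken into account and no value over all genes is given, so these counts do not set the genes apart. The nearest IDR summit to wars-1 was at -108626 bp, the farthest of the family.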
